A study of Homo sapiens with 6 samples.

Results

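Metallothioneins are small, cysteine-rich proteins of the cytosol and nucleus, and 6 of their genes (MT2A, MT1E, MT1X, MT1F, MT1M and MT1G) were examined together with MTF1, the transcription factor that controls them. The genes were chosen by symbol and not by a cut-off on their values, though earlier results of these data were known. They are 7 of the 60835 loci in the deposited table. Each was found at 1 locus holding an annotated transcript, and 6 of the 7 passed the filter on low counts that left 25025 loci for testing. The RNA came from ARPE-19, an established human retinal pigment epithelium line of wild-type genotype, kept for 72 h in medium with a normal or a high concentration of glucose, with 3 libraries per group. The high glucose culture was meant as an in vitro model of the diabetic environment and of the cell loss it brings. The labels give neither glucose concentration and do not say that the libraries of a group were separate cultures, so p-values reflect no more than the variation among libraries, which may be technical. No osmotic control was analysed here.

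Metallothioneins bind zinc and copper ions, and also toxic metals such as cadmium, through clusters of cysteine thiols. When free zinc rises, MTF1 binds it, enters the nucleus and activates promoters that carry metal response elements, so that metallothionein transcription follows the supply of zinc. Glucocorticoids and oxidants induce several of these genes as well. In the retinal pigment epithelium, a tissue rich in zinc, metallothioneins are regarded as part of the defence against metals and oxidants.

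The libraries held 81616741 to 87748820 counts. In a principal component analysis the first component (49.7% of the variance) separated the groups, and the second (18%) set normal glucose library 3 apart from the other 5, at -107.1 against 6.61 to 44.0. Results below are therefore also given without that library. Of 12 markers of retinal pigment epithelium, 10 exceeded 12 counts in some library, whereas RPE65 and TYR, which mark the visual cycle and pigment synthesis, were at or under that floor in all 6. The summed level of these markers, which is mostly that of the keratins KRT8 and KRT18, was 795 to 1272 CPM (counts scaled to library size) in normal and 2342 to 2481 CPM in high glucose. The members of this list did not move together: KRT8 and KRT18 rose (log2 changes 1.66 and 1.88, edgeR adjusted p = 0.0152 and 0.00636). BEST1, a chloride channel of this epithelium, fell from a mean of 9.30 to 2.02 CPM (log2 change -2.20, edgeR adjusted p = 0.0113). MITF, a pigment cell factor, had means of 83.1 and 49.8 CPM (log2 change -0.74, edgeR adjusted p = 0.103). Its groups did not overlap, as at 20.5% of tested loci with high glucose below, and high glucose 1, 2 and 3 were at 58.0, 62.7 and 28.7 CPM. The 9 fibroblast markers, all above the floor in some library, summed to 168 to 290 and to 228 to 231 CPM. The locus of PDGFRA, with means of 45.2 and 47.5 CPM, also holds FIP1L1, so its part of the sum may not be PDGFRA. In this sum PDGFRB was higher in high glucose (means of 100.9 and 161 CPM, edgeR adjusted p = 0.00572). COL1A1 (46.1 and 8.19 CPM, edgeR adjusted p = 0.0302) and TWIST1 (8.41 and 4.53 CPM, edgeR adjusted p = 0.0203) were lower. Normal glucose 1 was the highest library for collagens: across normal glucose 1, 2 and 3, COL1A1 was at 86.4, 39.2 and 12.9 CPM. COL1A2, not called, was at 28.7, 0.862 and 0.866 CPM there. Of 5 leukocyte markers, 2 were above the floor in some library (CD14 with at most 77 counts, and CD68, whose locus also holds EIF4A1 and SENP3), and PTPRC and CD3E were at or under it in all; the sum was 343 to 474 and 427 to 544 CPM. Of 4 endothelial markers, 3 were above it (KDR, VWF and PECAM1) and CDH5 was not; the sum was 10.6 to 17.1 and 3.06 to 4.51 CPM, and KDR fell from a mean of 12.2 to 2.30 CPM (log2 change -2.41, edgeR adjusted p = 0.00478). The part of the marker differences in the results was not tested. In RNA from whole cultures, fewer cells of a type and less RNA per cell cannot be told apart.

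MT2A and MT1E were the most abundant metallothioneins, and MT1F was the only member called by edgeR with all 6 libraries. At an edgeR adjusted p under 0.05, 1 of the 6 tested members (MT1F) fell in high glucose and none rose, where 19.6% of all tested loci were called, 9.75% higher and 9.86% lower. The share was 25.5% of the 13786 tested loci with a protein-coding transcript. A count of 1 in 6 is thus no more than the share over all loci. At an unadjusted p under 0.05, edgeR gave 0 members higher and 1 lower, where 34.6% of all tested loci passed (17.2% higher and 17.3% lower). DESeq2 and limma voom with a weight per group each called MT1F alone after adjustment (28.2% and 20.6% of all tested loci were called) and gave 1 member higher and 1 lower before it. Before adjustment, 37% of all tested loci passed in DESeq2 (18.2% higher and 18.8% lower) and 35.2% in voom (17.5% higher and 17.7% lower). Without normal glucose 3, MT2A, MT1E and MT1X rose and MT1F fell, where 28.7% of all tested loci were called, 14.8% higher and 13.9% lower.

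**Figure D1:**
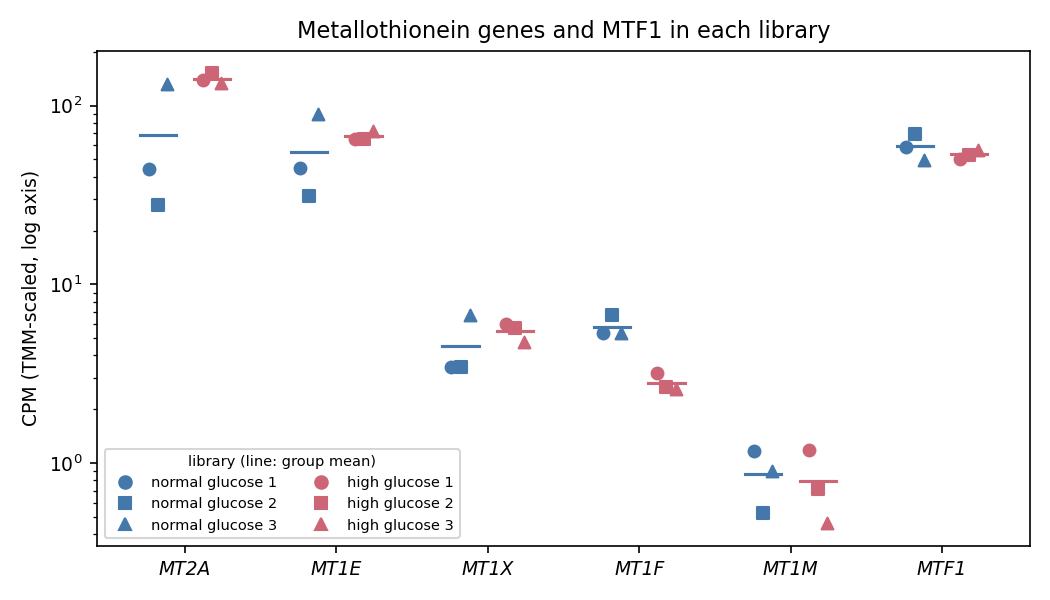
Level of each tested member in each of the 6 libraries, in CPM scaled by TMM on a log axis, with the mean of each group of 3 as a line. Normal glucose 3 (blue triangle) lies near or above the high glucose libraries for MT2A, MT1E and MT1X, and all MT1F points of high glucose (2.59 to 3.18 CPM) lie below those of normal glucose (5.33 to 6.75 CPM).

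MT2A, the main metallothionein of most human cells, lies on chromosome 16 at 56608584 to 56609497, plus strand. Its level was 44.1, 27.8 and 133 CPM in normal glucose 1, 2 and 3 and 139, 152 and 134 CPM in high glucose 1, 2 and 3. The groups did not overlap, but normal glucose 3 lay just under the lowest high glucose library and the other normal glucose libraries far below. Groups without overlap were found at 42.3% of the tested loci, with high glucose above at 21.8%. The means were 68.2 ± 56.3 and 141 ± 9.15 CPM (SD, n = 3), a difference of 2.07-fold, with a log2 change of 1.05 (SE 0.522, edgeR adjusted p = 0.202). Without normal glucose 3, MT2A rose by 1.98 on the log2 scale (SE 0.208, edgeR adjusted p = 0.00175). With each of the other libraries left out, the log2 change was 0.68 to 1.09 and the adjusted p 0.317 to 0.412.

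The promoter of MT2A is shown because the gene is the most abundant member, and those of MT1X and MT1H because they come from the same cluster and belong to a gene read at a low level and to a gene without a count. Each sequence is the 250 bases before the start site from RefSeq (GRCh38.p14), 5′ to 3′ on the gene's strand, with matches to the core of the metal response element (TGCACNC or TGCGCNC, on either strand, none of them overlapping) in capitals.
MT2A, chr16:56608334-56608583: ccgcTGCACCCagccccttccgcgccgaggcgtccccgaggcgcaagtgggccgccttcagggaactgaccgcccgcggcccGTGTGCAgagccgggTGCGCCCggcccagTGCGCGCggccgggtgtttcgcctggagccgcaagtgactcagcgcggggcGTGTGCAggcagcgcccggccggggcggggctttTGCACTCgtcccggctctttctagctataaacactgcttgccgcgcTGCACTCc
MT1X, chr16:56682220-56682469: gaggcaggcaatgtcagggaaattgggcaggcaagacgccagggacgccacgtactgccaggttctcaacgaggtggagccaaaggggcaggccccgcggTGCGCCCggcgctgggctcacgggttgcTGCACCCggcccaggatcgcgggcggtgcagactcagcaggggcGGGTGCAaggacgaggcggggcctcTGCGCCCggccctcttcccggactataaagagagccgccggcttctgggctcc
MT1H, chr16:56669564-56669813: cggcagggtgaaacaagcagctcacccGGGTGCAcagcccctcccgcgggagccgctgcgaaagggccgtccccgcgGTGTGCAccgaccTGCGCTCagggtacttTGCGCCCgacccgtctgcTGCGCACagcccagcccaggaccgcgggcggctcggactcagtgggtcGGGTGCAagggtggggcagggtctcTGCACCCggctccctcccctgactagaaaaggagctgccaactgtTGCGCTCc
MT2A held 7 matches, the first starting at base -246 and the last at base -8 from the start site. MT1X held 4 and MT1H 8. Of 35116 promoter windows of the same length, 24.8% held at least 1 match, 0.37% at least 4, 0.0313% (11 promoters) at least 7 and 0.0171% (6 promoters) at least 8. MT1H, with the largest number of matches among the 6 metallothionein and MTF1 promoters that could be read, had no count in any library. No match was present in the window of MTF1 itself, and MT1B and MT4, which also had no count, held 3 each. Such matches are letters in a window and not measured binding sites.

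MT1E, an inducible isoform of the MT1 group, lies 16.9 kb beyond MT2A at 56625475 to 56627112, plus strand. It was read at 44.7, 31.0 and 89.8 CPM in normal and 65.1, 64.8 and 72.4 CPM in high glucose. Normal glucose 3 held the highest value of all 6 libraries, so that the groups overlapped. The log2 change was 0.29 (SE 0.354, edgeR adjusted p = 0.613). Without normal glucose 3, MT1E rose by 0.83 (adjusted p = 0.0151), and without normal glucose 2 the log2 change was 0.00 (adjusted p = 0.994).

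MT1X, another inducible MT1 isoform, occupies a locus (56682470 to 56688052, plus strand) that also holds AC026461 and the pseudogene DPPA2P4, so its values may include reads of these. The locus was read at 3.44, 3.45 and 6.70 CPM in normal and 5.97, 5.72 and 4.75 CPM in high glucose. As for MT1E, normal glucose 3 was the highest library and the groups overlapped. The log2 change was 0.28 (SE 0.301, edgeR adjusted p = 0.567), and 0.67 (adjusted p = 0.0353) without normal glucose 3.

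MT1F, an MT1 isoform 49.1 kb beyond MT2A at 56657731 to 56659305, plus strand, moved the other way. Its level was 5.34, 6.75 and 5.33 CPM in normal and 3.18, 2.67 and 2.59 CPM in high glucose. Here normal glucose 3 stood with the other 2 normal glucose libraries, and the groups did not overlap (20.5% of the tested loci had high glucose below without overlap). MT1F fell from 5.80 ± 0.817 to 2.81 ± 0.324 CPM (SD, n = 3), a 2.06-fold difference, with a log2 change of -1.04 (SE 0.199, edgeR adjusted p = 0.0147). The call was lost on dropping high glucose 2 (log2 change -1.01, adjusted p = 0.0707) or high glucose 3 (-0.98, adjusted p = 0.0712), and with the replicate number as a block (-1.04, adjusted p = 0.0506). The values rest on 213 to 284 counts in high and 443 to 579 in normal glucose.

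MT1M and MT1G were close to the limit of what the libraries could measure. MT1M, at 56632659 to 56633981 on the plus strand, was read at 1.17, 0.524 and 0.902 CPM in normal and 1.19, 0.718 and 0.461 CPM in high glucose, or 38 to 106 counts. The groups overlapped in full, and the log2 change was -0.13 (edgeR adjusted p = 0.873). It changed sign on dropping normal glucose 1 (0.15) or high glucose 3 (0.14). MT1G, at 56666730 to 56668065 and the only member of the cluster here on the minus strand, had 4 counts in normal glucose 2 and 0 in the other 5 libraries. A count of 0 allows up to 12 counts per library, which is 0.135 to 0.146 CPM, and no fold is given.

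MTF1, the zinc-sensing factor, lies on chromosome 1 at 37809574 to 37859592, minus strand. It was read at 58.8, 69.2 and 49.4 CPM in normal and 50.4, 53.1 and 56.2 CPM in high glucose. The high glucose values fell within the normal glucose range, and the log2 change was -0.15 (SE 0.143, edgeR adjusted p = 0.505). Without normal glucose 3 it was -0.26 (adjusted p = 0.121). A locus on the other strand, AL929472, overlaps MTF1 and had a mean of 2.67 counts.

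**Figure D2:**
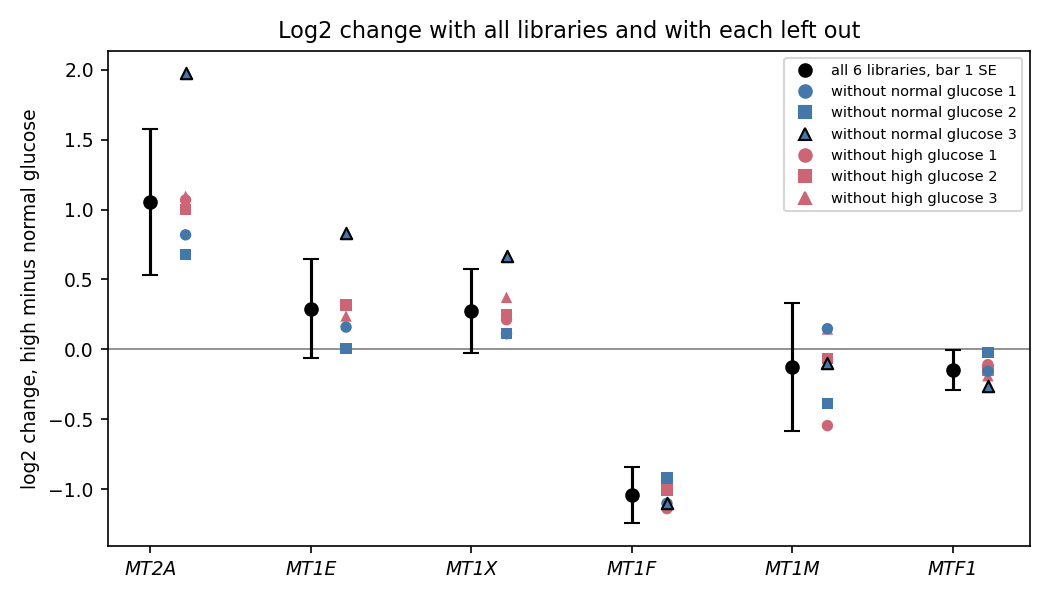
Log2 change of each tested member (high minus normal glucose) with all 6 libraries (black, bar 1 SE) and with each library left out (colored, beside it). The omission of normal glucose 3 (outlined triangle) moves MT2A from 1.05 to 1.98, MT1E from 0.29 to 0.83 and MT1X from 0.28 to 0.67, while MT1F stays between -1.14 and -0.92.

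Levels of different genes were compared by the deposited FPKM values, which are scaled to length. The length set for each locus was not examined. The loci of MT2A, MT1F and MT1X hold transcripts with retained introns, and that of MT1X also holds other genes. A longer set length would lower their FPKM, so the order of the lesser members depends on it. In normal glucose the order was MT2A (59.6 ± 49.0 FPKM), MT1E (42.0 ± 23.2), MTF1 (5.94 ± 1.01), MT1F (2.50 ± 0.357), MT1X (1.39 ± 0.572) and MT1M (1.34 ± 0.516; SD, n = 3 for each). Within each normal glucose library MT2A was above MT1E, by little in 1 and 2 (38.8 and 34.1, 24.5 and 23.7 FPKM) and by more in 3 (116 and 68.0 FPKM). MT1X was below MT1M in normal glucose 1 and above it in 2 and 3. In high glucose the FPKM order was MT2A (128 ± 8.10), MT1E (52.8 ± 3.19), MTF1 (5.49 ± 0.264), MT1X (1.73 ± 0.217), MT1M (1.26 ± 0.609) and MT1F (1.25 ± 0.156). The FPKM of MT1F was thus above that of MT1X and MT1M in each normal glucose library. In high glucose it was below that of MT1X in each library and overlapped with that of MT1M. The order differed in CPM, which is not scaled to length. In mean CPM of high glucose, MT1X (5.48) and MT1F (2.81) were above MT1M (0.789). In normal glucose 3, MT1F (5.33 CPM) was below MT1X (6.70 CPM).

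MT2A also took a larger part of all metallothionein RNA in high glucose, a measure chosen after the values were seen and given without a test. Its share of the summed metallothionein FPKM was 48.1%, 45.2% and 60.4% in normal and 67.4%, 70.1% and 65.8% in high glucose. The share of MT1E was 42.4%, 43.8% and 35.5% against 27.5%, 26.0% and 31.0%. The ratio of MT2A to MT1E counts, which does not depend on library scaling, was 0.986, 0.897 and 1.48 in normal and 2.13, 2.34 and 1.85 in high glucose. Normal glucose 3 was close to high glucose in the total (192 FPKM against 182 to 194, and 80.6 and 54.1 in normal glucose 1 and 2) but lay between the groups in this ratio.

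**Figure D3:**
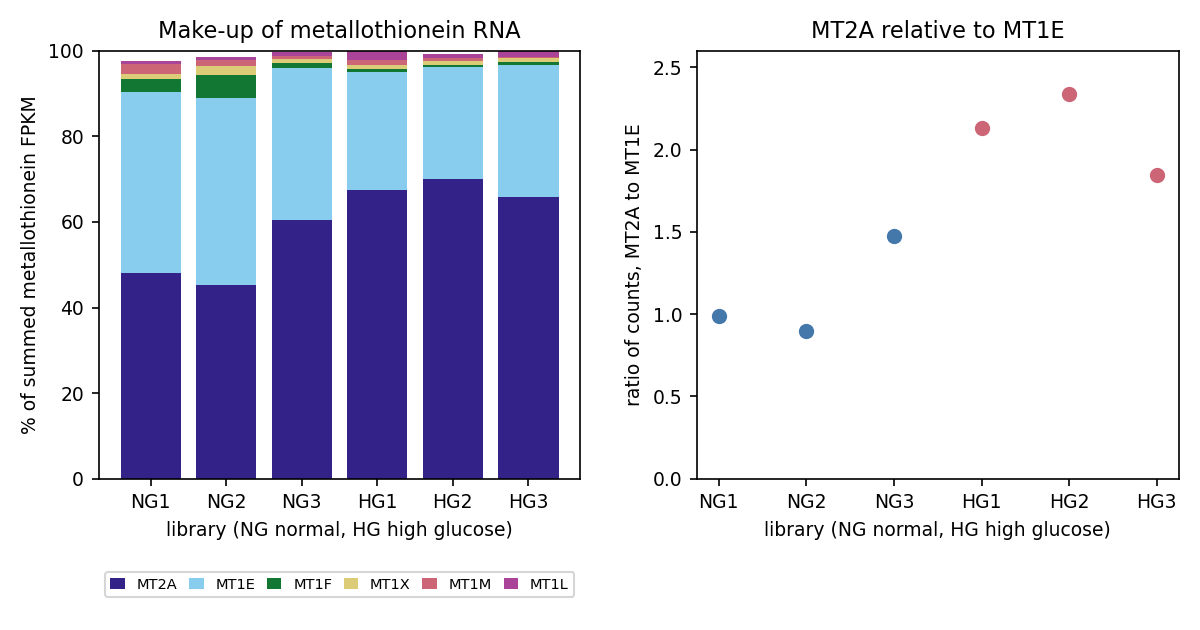
Left, share of each gene in the summed metallothionein FPKM of each library (percent; the gap above a bar belongs to family members not drawn); right, ratio of MT2A to MT1E counts per library. MT2A makes up 45.2% to 60.4% in the 3 normal glucose (NG) and 65.8% to 70.1% in the 3 high glucose (HG) libraries, and the ratio is 0.897 to 1.48 against 1.85 to 2.34.

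Among the remaining metallothionein genes, the pseudogene MT1L reached the level of the lesser members and most others had few counts or none. Of 14 further genes and pseudogenes of the family, 13 had a locus, 7 of these (MT1B, MT1H, MT1HL1, MT1DP, MT1CP, MT1JP and MT4) had no count in any library, and 2 passed the filter. MT3, the brain isoform, had at most 8 counts per library. MT1A was read at 0.358, 0 and 0.228 CPM in normal and 0, 0.558 and 0.0486 CPM in high glucose, with no order between the groups. MT1L, a transcribed pseudogene between MT2A and MT1E, was read at 0.335, 0.221 and 0.890 CPM in normal and 2.04, 1.05 and 1.24 CPM in high glucose. In FPKM its mean in high glucose was 2.87 ± 1.08 (SD, n = 3), above those of MT1X, MT1M and MT1F there. In CPM its mean in high glucose (1.44) was above that of MT1M (0.789) but below those of MT1F (2.81) and MT1X (5.48). Its groups did not overlap, as at 21.8% of the tested loci with high glucose above. The log2 change of MT1L was 1.58 (SE 0.561, edgeR adjusted p = 0.0921), with an adjusted p of 0.0329 in DESeq2 and of 0.0117 without normal glucose 3 (log2 change 2.37). The genes of this family are near-identical copies, and the sources used here do not give how reads that match several of them were assigned, so reads may have been moved between MT1 genes and pseudogenes.

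**Figure D4:**
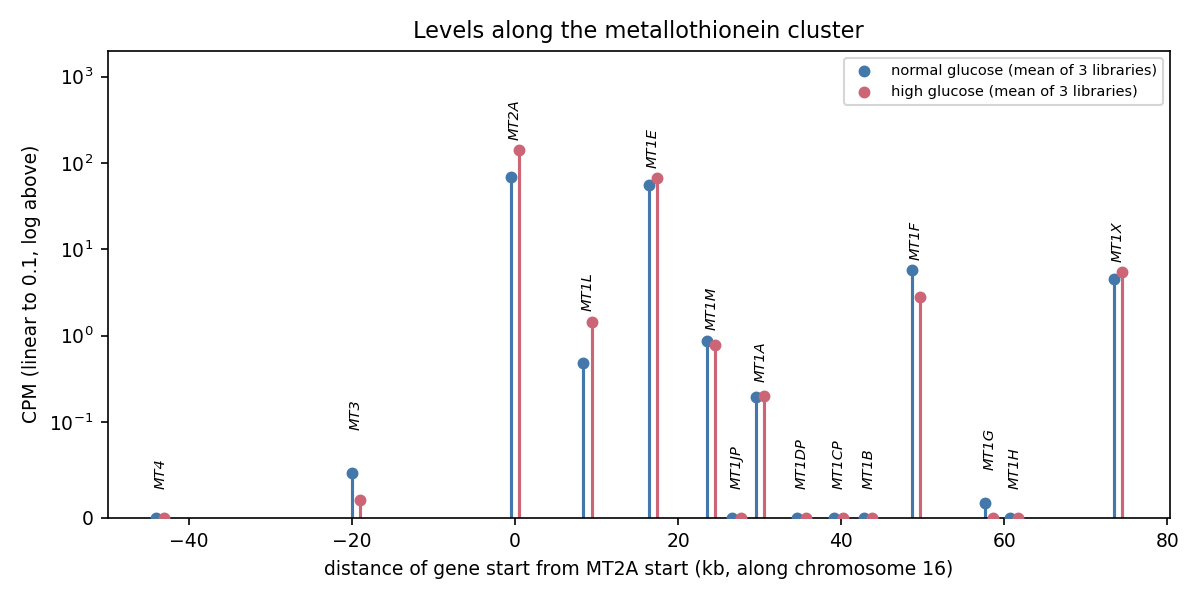
Mean level in normal and high glucose (3 libraries each) of the 15 metallothionein loci on chromosome 16, by the distance of each gene's start from that of MT2A in kb; the CPM axis is linear to 0.1 and logarithmic above. MT2A and MT1E stand above the rest in both groups, and 6 of the loci lie at 0 in both.

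The metallothionein cluster spans 123 kb, from 56565073 to 56688052 on chromosome 16. Within 300 kb on either side, 8 protein-coding loci were tested, of which 1 fell and none rose, with a median log2 change of -0.15. Among all tested loci with a protein-coding transcript, 12.4% fell and 13.1% rose. The locus that fell was HERPUD1, an endoplasmic reticulum stress gene, at 514, 484 and 116 CPM in normal and 61.0, 40.6 and 66.2 CPM in high glucose (log2 change -2.73, edgeR adjusted p = 0.0161). The log2 changes of BBS2, a cilium gene (0.38, adjusted p = 0.0953) and NUP93, a nuclear pore gene (-0.21, adjusted p = 0.385) were not called. Without normal glucose 3, BBS2 was called (0.52, adjusted p = 0.00819).

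Among the loci whose levels were most like those of MT2A over the 6 libraries, by Pearson correlation of log2 CPM with 25024 other tested loci, were the locus of PDLIM2, C8orf58 and CCAR2 (r = 0.998), ELOVL6, a fatty acid elongase (0.998), SH3BGRL (0.997) and BRD7, a bromodomain gene (0.996). ELOVL6 was at 42.4, 32.1 and 70.8 CPM in normal and 75.4, 79.6 and 75.7 CPM in high glucose. With 6 libraries in 2 groups such values are common: 556 loci had an r above 0.95. Among the members, r with MT2A was 0.926 for MT1E, 0.897 for MT1X, 0.103 for MT1M, -0.80 for MT1F and -0.896 for MTF1. These values describe 6 libraries of similar depth in 2 groups, so r includes the difference between the groups.

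Of the tested genes that move zinc, SLC39A14 had the largest change. Of all tested loci, edgeR called 19.6% (9.75% higher and 9.86% lower), and 28.7% without normal glucose 3. DESeq2 called 28.2%, and 34.6% had an edgeR unadjusted p under 0.05. Of 7 tested zinc exporters of the SLC30A family, none was called by edgeR (0 higher and 1 lower at an unadjusted p under 0.05; DESeq2 called 1 lower), with a median log2 change of -0.03, against -0.00 over all tested loci. SLC30A1, the plasma membrane exporter that MTF1 induces together with the metallothioneins, was at 134, 128 and 98.8 CPM in normal and 107, 107 and 111 CPM in high glucose. Its normal glucose 3 value lay below all others, and its log2 change was -0.15 (SE 0.134, edgeR adjusted p = 0.475), or -0.27 (adjusted p = 0.0353) without normal glucose 3. SLC30A10, a manganese exporter, did not pass the filter. Without normal glucose 3, 2 exporters were called lower.

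Of 12 tested importers of the SLC39A family, 2 rose and 1 fell, with a median log2 change of 0.07 (19.6% of all tested loci were called). Without normal glucose 3, 3 rose and 1 fell, where 28.7% of all tested loci were called. SLC39A14, an importer of zinc, iron and manganese, was at 1280, 1471 and 648 CPM in normal and 143, 66.6 and 137 CPM in high glucose. The groups were far apart, and SLC39A14 fell from 1133 ± 431 to 116 ± 42.6 CPM (SD, n = 3), 9.79-fold, with a log2 change of -3.29 (SE 0.41, edgeR adjusted p = 0.00454). It stayed called under each of the 18 alternatives. SLC39A11, a zinc importer of internal membranes, rose from 5.54 ± 0.784 to 10.1 ± 0.75 CPM (log2 change 0.87, edgeR adjusted p = 0.0163) and lost the call on dropping normal glucose 2 (adjusted p = 0.0506) or any 1 high glucose library (adjusted p = 0.0586 to 0.0766). The locus of SLC39A3, which also holds DIRAS1, rose by 0.63 (edgeR adjusted p = 0.0419) and was not called on dropping normal glucose 1 or 2 (adjusted p = 0.0589 and 0.0574) or any 1 high glucose library (0.122 to 0.126), or with the replicate block (0.0784). For SLC39A10, an importer that MTF1 represses, the log2 change was 0.42 (edgeR adjusted p = 0.274), and 0.77 (adjusted p = 0.00262) without normal glucose 3.

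Of 12 tested genes of copper handling, 2 rose and 2 fell, with a median log2 change of 0.06 (19.6% of all tested loci were called). The same numbers of copper genes were called without normal glucose 3 (28.7% of all tested loci). SLC31A1, the high-affinity copper importer of the plasma membrane, was at 192, 192 and 135 CPM in normal and 79.6, 80.2 and 83.1 CPM in high glucose. It fell by 1.09 on the log2 scale (SE 0.154, edgeR adjusted p = 0.00624) and stayed called under each of the 18 alternatives. ATOX1, which carries copper to the export pumps, rose from 36.2 ± 10.1 to 65.9 ± 0.912 CPM (log2 change 0.86, edgeR adjusted p = 0.0237), a call lost on dropping normal glucose 1 or 2 (adjusted p = 0.0768 and 0.0588) or any 1 high glucose library (0.0802 to 0.0834). COX17, the copper chaperone of mitochondria in a locus with POPDC2, fell by 0.74 (edgeR adjusted p = 0.0161), a call lost on dropping normal glucose 1 (adjusted p = 0.0506) or any 1 high glucose library (0.0682 to 0.0765). The locus of ATP7A, a copper export pump, rose by 0.90 (edgeR adjusted p = 0.00752) but also holds PGK1, an abundant glycolytic gene, so the value is not that of ATP7A alone.

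**Figure D5:**
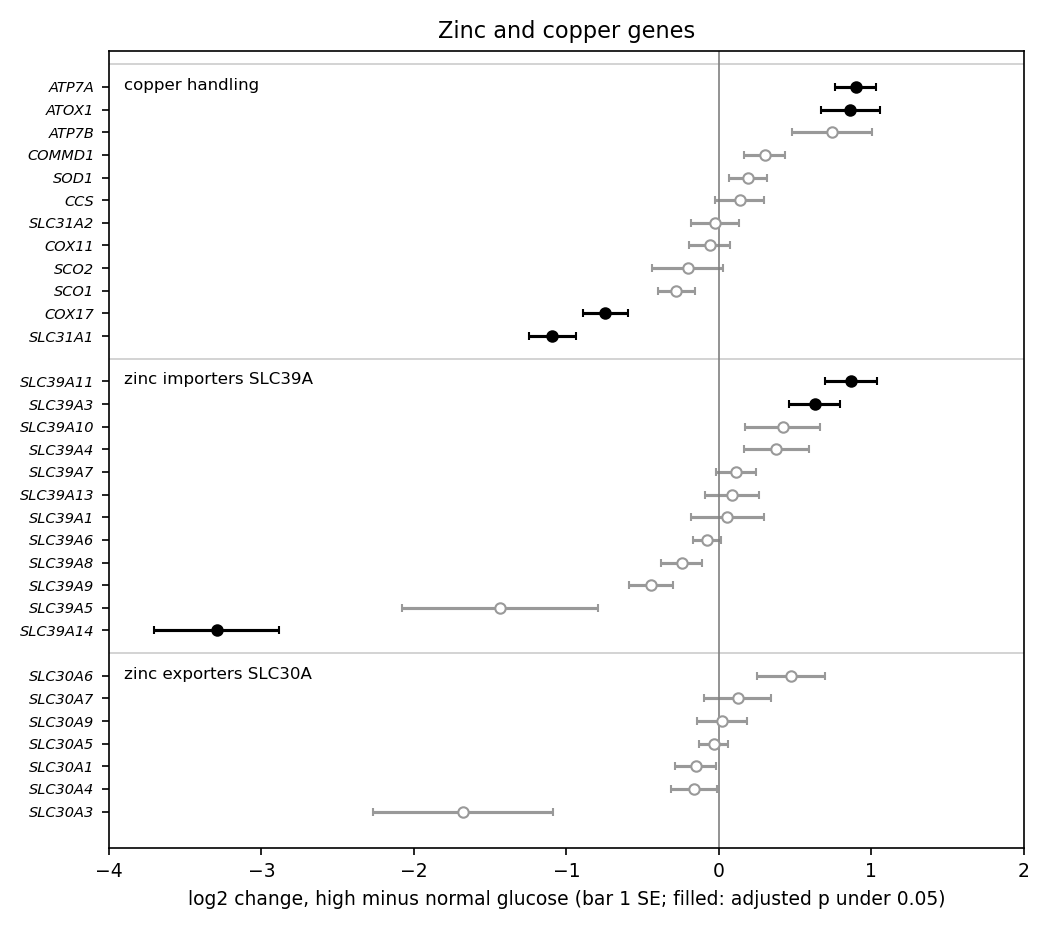
Log2 change (high minus normal glucose, bar 1 SE) of the tested zinc exporters, zinc importers and copper genes; filled points have an edgeR adjusted p under 0.05. SLC39A14 lies at -3.29 and SLC31A1 at -1.09, and all 7 zinc exporters are open.

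Genes tied to MTF1 and to other inducers of metallothioneins went in both directions. Of 7 genes reported as MTF1 targets besides the metallothioneins, 1 rose and 3 fell (2 and 4 without normal glucose 3), with a median log2 change of -1.04. Of all tested loci, 19.6% were called, and 28.7% without normal glucose 3. The list holds both SLC30A1, which MTF1 induces, and SLC39A10, which it represses, so the tally and median do not measure MTF1 activity. NDRG1, a stress-responsive gene, fell from 120 ± 33.5 to 42.1 ± 0.767 CPM (log2 change -1.51, edgeR adjusted p = 0.0061). GCLC, which makes glutathione, fell by 1.04 (edgeR adjusted p = 0.00869; 0.05001 on dropping high glucose 2). CSRP1, a cytoskeletal LIM protein, fell by 1.25 (edgeR adjusted p = 0.0226), a call lost on dropping normal glucose 1 or 2 (adjusted p = 0.0679 and 0.06) or any 1 high glucose library (0.0709 to 0.0896), or on log2 FPKM + 1 (0.0585). The locus of SELENOH rose by 0.63 (edgeR adjusted p = 0.0141), but it also holds TMX2 and CTNND1, and its call was lost on dropping any 1 high glucose library (adjusted p = 0.0572 to 0.0682).

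Of 9 tested genes of the glucocorticoid response, 1 rose and 2 fell (1 and 3 without normal glucose 3), with a median log2 change of -0.50. Of all tested loci, 19.6% were called, and 28.7% without normal glucose 3. FKBP5, a chaperone of the glucocorticoid receptor and its induced inhibitor, rose from 4.66 ± 1.62 to 10.7 ± 0.202 CPM (log2 change 1.20, edgeR adjusted p = 0.0207), a call lost on dropping normal glucose 2 (adjusted p = 0.0672) or any 1 high glucose library (0.0725 to 0.0786). TSC22D3, another gene induced by the hormone, fell by 0.84 (edgeR adjusted p = 0.02), and ERRFI1, an inhibitor of EGF receptor signalling, by 0.50 (edgeR adjusted p = 0.0312). On dropping any 1 library other than normal glucose 3, neither was called (adjusted p of 0.05003 to 0.0861 for TSC22D3 and 0.0756 to 0.127 for ERRFI1), and ERRFI1 was not called with the replicate block (0.0937) or on log2 FPKM + 0.1 and + 1 (0.0528 and 0.0571). NR3C1, the receptor, was at 141, 157 and 92.4 CPM in normal and 82.3, 76.1 and 108 CPM in high glucose (log2 change -0.55, edgeR adjusted p = 0.129), and at -0.75 (adjusted p = 0.018) without normal glucose 3.

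The list of heat shock and stress genes tied to heavy metals holds 8 genes, among them HSF1, a heat shock transcription factor. They fall into 7 loci, because HSPA1A and HSPA1B share their counts. Of these, 3 rose and 2 fell, with or without normal glucose 3, and the median log2 change was 0.02. Of all tested loci, 19.6% were called, and 28.7% without normal glucose 3. HSPB1, a small heat shock protein, rose from 133 ± 13.0 to 252 ± 8.74 CPM (log2 change 0.92, edgeR adjusted p = 0.00371). DNAJB1, a cochaperone, rose by 0.82 (edgeR adjusted p = 0.0069). HSPH1, a large chaperone, fell by 1.35 (edgeR adjusted p = 0.0113; not called on dropping high glucose 2, 0.0534, or 3, 0.0579). HMOX1, which degrades heme and is induced by cadmium, was at 431, 728 and 39.1 CPM in normal and 15.2, 15.4 and 15.9 CPM in high glucose. Its 2 highest libraries, normal glucose 1 and 2, were those with the lowest MT2A. The same 2 libraries were also the highest for SLC39A14, HERPUD1 and NDRG1, so this order was not particular to HMOX1. Its log2 change was -4.69 (edgeR adjusted p = 0.0169), a call lost on dropping any 1 high glucose library (adjusted p = 0.0729 to 0.0755). HMOX1 was also not called with the replicate block (0.0595) or on log2 FPKM + 1 (0.0506). Over the 6 lists of zinc, copper, MTF1, glucocorticoid and heat shock genes, 9 of 52 tested loci rose and 10 fell. Of all tested loci, 9.75% rose and 9.86% fell, and 25.5% of those with a protein-coding transcript were called.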

How the data were processed

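Per the labels' protocols, total RNA for the 6 ARPE-19 libraries was extracted with Trizol, passed over poly-T beads and read from both ends on a NovaSeq. The authors deposited 1 table with a count and an FPKM value for each locus and library. Each deposited count is a whole number without normalization. FPKM, which adjusts for length and depth, was computed by the authors, per the file headers, and 0.0001 is listed where the count is 0. Bowtie 0.12.2 and mm8, a mouse build, stand in the submitters' processing notes, but names and coordinates are human: 99.8% of 37620 symbols, and all 7 members, overlapped their RefSeq position in GRCh38.p14. The counting tool and the use of strand are not given in the sources used here. No per-sample column was left unmapped (0 columns).

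A gene was taken as the locus with an annotated transcript that holds its symbol (the one with the highest mean count). Loci kept by filterByExpr were tested with edgeR 4.0.16 in R 4.3.3 (TMM, glmQLFit, glmQLFTest, 2-sided, group as the only term), with Benjamini-Hochberg adjustment over all 25025. Called means an adjusted p under 0.05, SE is |log2 change| over the root of F, and CPM is scaled by TMM. Count values of 4 were more frequent (9555) than of 3 (4210) or 5 (2659), so a fragment may add about 4 to a count, and the floor was set at 3 fragments or 12 counts. Floors cover counting error only. For the likeness to MT2A, 0.5 was added to CPM before log2.

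Alternatives were DESeq2 1.42.0, limma 3.58.1 (voom with a weight per group, or log2 of FPKM + 1 and FPKM + 0.1 with a filter at FPKM 0.1), other scalings and filters, counts divided by 4, summed rows of a symbol, a replicate block, leaving out single libraries and a minimum log2 change of 1. The genes named are the members, the other metallothionein genes, up to 4 called genes per list with the smallest adjusted p, SLC30A1, SLC30A10, SLC39A10 and NR3C1, the 5 named loci most like MT2A and up to 4 neighbours; a few genes that these rules take in are not reported here. Members, lists and alternatives were chosen with earlier results of these data known. The edgeR step was tested on simulated counts for the 25025 loci: for high minus normal glucose it called 8 of 100 loci changed 2-fold and 53 of 100 changed 4-fold in the right direction, and 8 of 24825 unchanged loci. A far smaller share of loci was changed there than was called in the data (4906 of 25025). The adjustment grows stricter as that share falls, so these rates do not give the power in the data. The RefSeq table held promoters of 3 of the 7 members and of 3 other metallothionein genes.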

Additional observations from a re-analysis of the deposited data

How the results depend on the processing

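With 3 libraries per group, most calls depend on the libraries at hand. Over the omission of each library, the number of members called higher was 0 to 3 (3 without normal glucose 3) and called lower 0 to 1. It was 730 to 3932 loci higher and 691 to 3683 lower over all tested loci, and 3 to 10 higher and 3 to 13 lower over the 6 lists. With the replicate block, 0 members were called in either direction, and 1312 loci were called higher and 1233 lower. Same-numbered libraries did not deviate together (r of -0.017, -0.000759 and -0.00942), and no library correlated best with its own number. With a log2 change of at least 1 also required, 1333 loci were called higher and 1284 lower, and 1 list gene higher and 7 lower. The log2 change of MT1M, not called, changed sign when normal glucose 1 (0.15) or high glucose 3 (0.14) was dropped, and ranged from -0.55 to 0.15 over the omissions. That of MT1A, also not called, was -0.29 and -0.027 on log2 FPKM + 0.1 and + 1, -0.51 with voom, -1.41 with the replicate block and -0.53 and -2.95 without normal glucose 2 and high glucose 2, and ranged from -2.95 to 0.82 over the omissions. The cause was not tested, except that an omission leaves fewer libraries. With all 6 libraries and other scalings, filters or tools, MT2A had log2 changes of 1.04 to 1.41, none called, and MT1F stayed called; with the block it was not. Of 518 alternative values for 29 named genes, 446 kept direction and side of the threshold, 56 lost and 8 gained a call, and 8 changed sign. DESeq2 called 7050 loci in all. Depth limits MT1M, MT1A and MT1L (under 200 counts per library) and MT1G.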
